A study of Mus musculus with 12 samples.

Results

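The homing and chemokine receptor genes described here are 9 genes, *Cxcr4*, *Ccr7*, *Cxcr5*, *Ccr2*, *Cx3cr1*, *S1pr1*, *Itga4*, *Selplg* and *Klf2*, of the 47643 genes in the deposited expression table. They were found by symbol, each once, and were read in all 12 libraries. The libraries hold poly(A)+ RNA of common lymphoid progenitors (CLPs), sorted from the bone marrow of male, age-matched mice of 27 to 32 weeks as lineage-negative cells with low Sca1, low c-Kit and IL7Rα at the surface. The WT group has 4 libraries. The ∆*Firre* group (labelled KO) has 4 libraries from mice without the *Firre* locus, an X-linked locus of a long non-coding RNA, deleted with a CMV-Cre that was then bred out, and backcrossed to C57BL/6J for a few generations. The *Firre* rescue group (labelled Rescue) has 4 libraries from mice that carry the same deletion together with tg(*Firre*), a *Firre* cDNA behind a tet-responsive element, and *rtTA* driven by a CAG promoter, and that ate doxycycline chow. *Firre* RNA in rescue mice therefore came from a transgene that can be switched on in most tissues. Mice of the study were otherwise kept on regular chow. The transgene, *rtTA* and doxycycline go together in the rescue group and cannot be told apart in any comparison with it. Libraries were taken as separate mice from their labels, and p-values measure the spread between these libraries.

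Chemokine receptors are G protein-coupled receptors that make a cell move along a gradient of ligand. CXCR4 holds hematopoietic progenitors near the CXCL12-producing stroma of the marrow, CCR7 and CXCR5 guide lymphocytes to the T-cell zone and the follicle of lymphoid tissue, and CCR2 and CX3CR1 are best known on monocytes, with CCR2 also taking part in the exit of cells from marrow. S1PR1 senses sphingosine 1-phosphate (S1P) and directs cells out of tissues into blood and lymph. The α4 integrin, encoded by *Itga4*, pairs with a β1 or β7 chain and binds VCAM-1, fibronectin or MAdCAM-1. PSGL-1, encoded by *Selplg*, is a mucin that carries the sugars bound by selectins, and KLF2 is a zinc-finger transcription factor known in T cells for keeping *S1pr1* transcribed.

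Of the 9 genes, 5 had a promoter entry in the RefSeq sequences used (build GRCm38.p6), namely *Cxcr4*, *Ccr2*, *Cx3cr1*, *Itga4* and *Klf2*. The 250 bases before the start site are shown for *Klf2*, *Cxcr4* and *Ccr2*, since these are the genes whose rescue libraries did not overlap with those of either other group. Letters are in lower case, read 5′ to 3′ on the strand of the gene, and capitals mark 1 motif where there is one. The *Klf2* window lies at chr8:72318812-72319061 on the plus strand, the *Cxcr4* window at chr1:128592300-128592549 on the minus strand and the *Ccr2* window at chr9:124101933-124102182 on the plus strand.
Klf2: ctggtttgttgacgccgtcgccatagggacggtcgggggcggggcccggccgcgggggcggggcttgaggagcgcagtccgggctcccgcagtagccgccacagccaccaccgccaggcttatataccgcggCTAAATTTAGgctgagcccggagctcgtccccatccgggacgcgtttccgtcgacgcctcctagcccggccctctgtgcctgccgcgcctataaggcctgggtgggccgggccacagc
Cxcr4: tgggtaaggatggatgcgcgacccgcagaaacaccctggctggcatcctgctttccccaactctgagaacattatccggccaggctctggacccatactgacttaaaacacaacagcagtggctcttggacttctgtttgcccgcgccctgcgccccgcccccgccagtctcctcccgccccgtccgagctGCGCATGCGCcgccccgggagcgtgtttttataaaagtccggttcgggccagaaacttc
Ccr2: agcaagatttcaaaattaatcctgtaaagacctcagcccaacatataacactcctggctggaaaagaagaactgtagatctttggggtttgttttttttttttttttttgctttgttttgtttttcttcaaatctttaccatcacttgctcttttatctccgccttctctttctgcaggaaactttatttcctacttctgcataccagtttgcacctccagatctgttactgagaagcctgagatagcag

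The capitals in the *Klf2* window mark a MEF2 box that begins 118 bases before the start site. In endothelium the MEF2 box of this promoter is known for passing on signals of blood flow. The capitals in the *Cxcr4* window mark a motif bound by NRF-1, GCGC and TGCGC with any 1 base between them, that begins 59 bases before the start site. Both strands of all 32851 RefSeq promoter windows of this length were searched for 6 motifs chosen after these promoters had been read. A MEF2 box was found in 2.92% of the windows, the NRF-1 motif in 3.74%, CACCC (the letters of KLF sites) in 52.0%, TGANTCA (the letters of AP-1) in 6.75%, TGACGTCA in 1.55% and a CArG box in 1.47%. *Klf2*, *Cxcr4* and *Cx3cr1* each had 1 match to CACCC and *Itga4* had 4, while no window of the 5 held TGANTCA, TGACGTCA or a CArG box, and the *Ccr2* window matched none of the 6. The windows differed in base composition, with a GC content of 71.2% for *Klf2*, 64.0% for *Itga4*, 61.2% for *Cxcr4*, 53.6% for *Cx3cr1* and 37.2% for *Ccr2*. A match is only a run of letters and was not tied to any binding. The *Ccr2* window overlaps the annotated gene, which another start opens further upstream.

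The genes lie apart in the genome (GRCm38.p6). *Cxcr4* is at chr1:128588199-128592299, *Itga4* at chr2:79255426-79333114, *S1pr1* at chr3:115710433-115715055, *Selplg* at chr5:113817798-113832528, *Klf2* at chr8:72319062-72321654 and *Ccr7* at chr11:99144199-99155077. The other three are on chromosome 9, with *Cxcr5* at chr9:44511787-44526444, *Cx3cr1* at chr9:120048683-120068296 and *Ccr2* at chr9:124101918-124109140.

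Values are TPM, the share of all transcripts in a library, scaled to gene length, so levels can be set side by side between genes. The reads behind the TPM, recovered from their steps, came to between 10991499 and 18175841 per library in WT, 14372322 and 17598763 in ∆*Firre* and 25782526 and 32573884 in rescue, so the rescue libraries were the deepest and hold the most counts per TPM. *Firre* itself was at 25.2 to 31.6 TPM in WT, 0 in all 4 ∆*Firre* libraries and 59.9 to 174 TPM in rescue. CLP markers were present in every library, with *Il7r* at 353 to 525 TPM, *Flt3* at 506 to 709 TPM and *Dntt* at 4315 to 6725 TPM over the 12 libraries. Of the 10 CLP markers, *Ly6d* (means of 528, 485 and 1258 TPM in WT, ∆*Firre* and rescue), *Tcf3* and *Rag1* were called higher and *Kit* and *Il2rg* lower in rescue in both comparisons, so the markers of the sorted cells differed too. Calls of markers in this paragraph stand beside 27.9% of all genes tested called between rescue and ∆*Firre* and 24.3% between rescue and WT. Markers of other cells were present too. The summed level of 6 basophil and mast cell markers (*Mcpt8*, *Prss34*, *Cpa3*, *Fcer1a*, *Ms4a2* and *Gata2*) was 1052 to 9045 TPM in WT, 2918 to 4291 in ∆*Firre* and 64.0 to 142 in rescue, and 6 NK cell markers summed to 130 to 434, 208 to 356 and 54.1 to 84.1 TPM. None of these 12 genes was at 0 in all libraries of a group. Further lists differed between rescue and the other groups without overlap. Plasma cell markers summed to 866 to 1622 TPM in WT, 1607 to 3405 in ∆*Firre* and 299 to 519 in rescue, mostly as *Igj* in WT and ∆*Firre*, with 4 of the 6 called lower in rescue than in ∆*Firre* and *Mzb1* and *Sdc1* called higher. T cell markers summed to 281 to 448, 278 to 450 and 166 to 247 TPM, mostly as *Trbc1*. *Trbc1* and *Trbc2* were the 2 of 5 tested that were called lower than in ∆*Firre*, and 1 of the 5 was called lower than in WT. *Cd3e* was at 0 in all rescue libraries and at a mean under 1 TPM in the other groups. ILC2 markers summed to 72.6 to 109.6, 87.0 to 111 and 42.1 to 66.3 TPM. Mature B cell markers summed to 544 to 840, 635 to 873 and 933 to 1291 TPM, highest in rescue, as was the sum of the CLP markers. Of the 8 mature B cell markers tested, 4 were called higher and 2, *Ms4a1* and *Ptprc*, lower in rescue in each comparison. The sums of neutrophil, eosinophil, erythroid and plasmacytoid dendritic cell markers overlapped between rescue and both other groups. Neutrophil markers summed to 269 to 1195 TPM in WT, 169 to 1477 in ∆*Firre* and 122 to 1485 in rescue. The lineage antibodies of the sort (CD3, Gr-1, B220, Ter-119 and CD11b) are meant to remove T, mature B, erythroid and most myeloid cells. The part of these cells in the differences below was not tested. The rescue libraries carry library numbers of a range of their own in the labels, so whatever goes with that range and the group cannot be told apart. In bulk RNA a smaller number of cells of a type and less RNA per cell cannot be told apart.

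All 9 genes were detected in every library and passed the filter for testing, a mean of at least 1 TPM, as did 14479 genes in all. In WT the order of mean levels was *Cxcr4* (444 TPM ± 119, SD, n = 4), *Itga4* (202 ± 27.5), *Selplg* (189 ± 13.8), *Ccr2* (72.6 ± 23.8), *Ccr7* (51.9 ± 21.9), *Cx3cr1* (20.5 ± 1.21), *S1pr1* (17.8 ± 6.75), *Klf2* (10.7 ± 3.63) and *Cxcr5* (7.81 ± 2.26). The libraries of neighbours in this order overlapped for *Itga4* and *Selplg*, for *Ccr2* and *Ccr7*, and from *Cx3cr1* down to *Cxcr5*, while *Cxcr4* stood above the others. ∆*Firre* had the same order. In rescue the order was *Cxcr4*, *Selplg*, *Itga4*, *Ccr7*, *Klf2*, *Ccr2*, *Cx3cr1*, *S1pr1* and *Cxcr5*: *Klf2*, eighth in the other groups, stood above *Ccr2* with no overlap of their libraries.

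**Figure D1:**
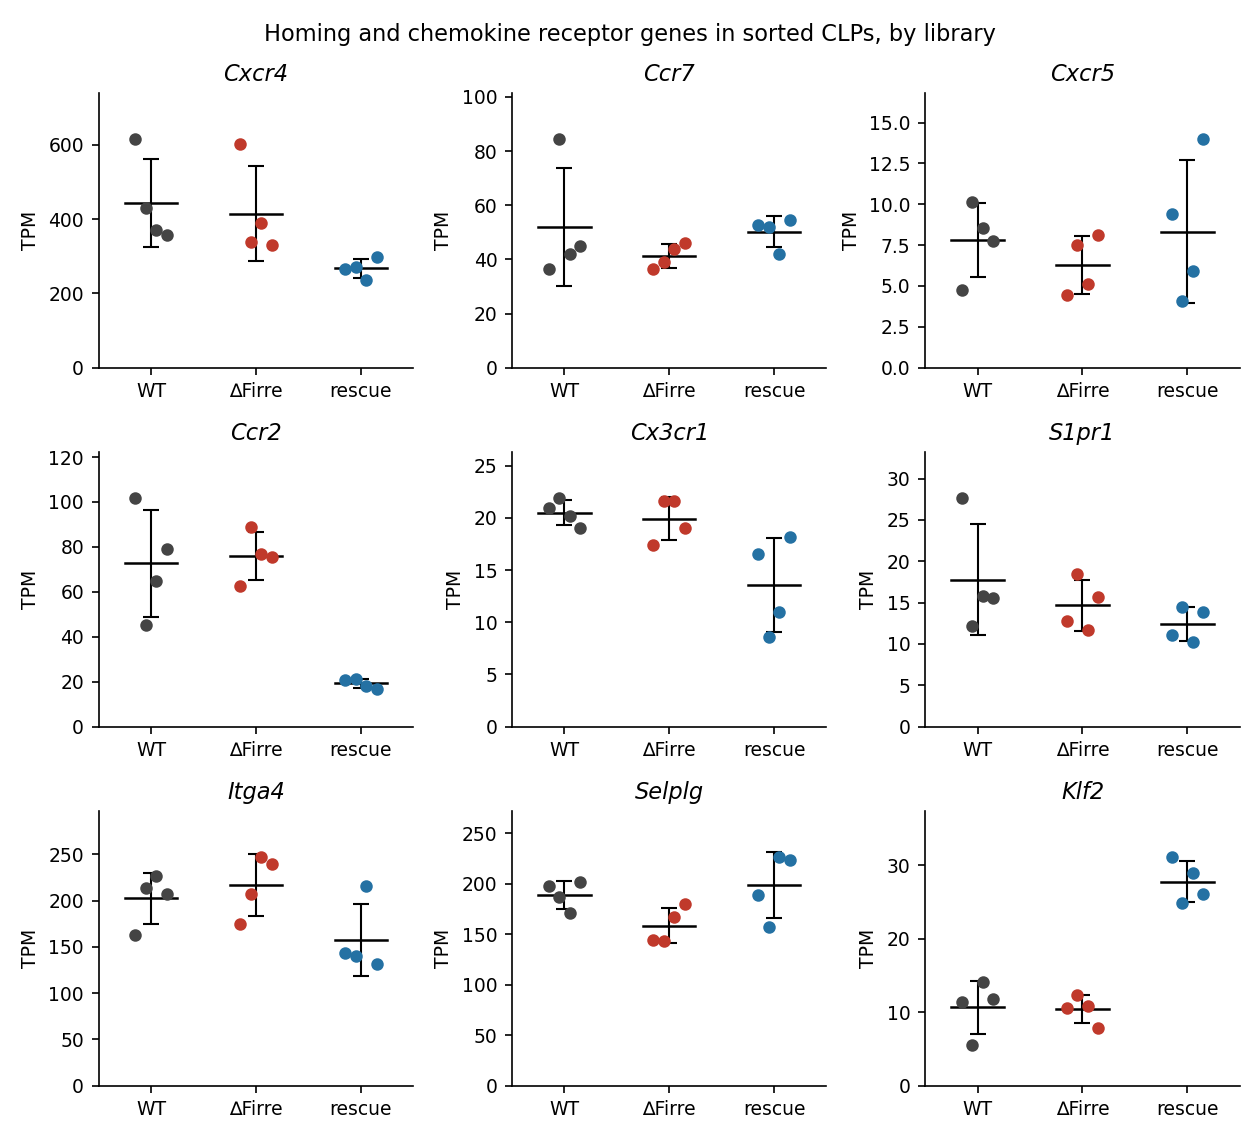
TPM of the 9 genes (y axis, from 0) in each of the 4 WT, 4 ∆*Firre* and 4 rescue libraries (points, ordered by library number), with the group mean (line) and SD (bars). The 4 rescue points lie below all others for *Ccr2* and *Cxcr4* and above all others for *Klf2*.

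The first comparison asked whether loss of the *Firre* locus changed these genes in CLPs. None of the 9 was called different between ∆*Firre* and WT by limma on log2(TPM + 1) at a Benjamini-Hochberg adjusted p of 0.1 over all genes tested, where 3 of 14479 genes (0.0207%) were called, 0.0138% of all genes higher and 0.00691%, *Firre* itself, lower. The libraries of the groups overlapped in all 9, where 5.33% of all genes did not overlap (0.843% with all of ∆*Firre* above WT and 4.49% below). Limma-voom on the recovered reads called 0 genes, so it did not call even *Firre*, the deleted locus. The differences ran from -0.27 for *Cxcr5* to 0.11 for *Ccr2* on the log2 scale. The closest to the threshold was *Selplg*, at 198, 186, 171 and 202 TPM in WT and 144, 143, 167 and 180 TPM in ∆*Firre*. The groups met only between 171 and 180 TPM, and the difference of -0.26 ± 0.12 (SE) had a 95% interval of -0.52 to 0.01 (limma unadjusted p = 0.0541, adjusted p = 0.929). After correction for transcript GC content it was -0.10. The tightest intervals were those of *Selplg* and of *Itga4* (-0.26 to 0.45) and the widest that of *Cxcr5* (-1.004 to 0.47).

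The labels number the libraries, and the numbers of WT and ∆*Firre* fall into 2 ranges that hold both genotypes. Within these ranges, with 2 against 2 libraries each, the ∆*Firre* minus WT difference of *Cxcr4* was 0.31 in one and -0.52 in the other. *Ccr7* (-0.61 and 0.11), *Cxcr5* (-0.78 and 0.25) and *Klf2* (0.36 and -0.33) also changed sign between the ranges, as did *Itga4* with smaller values (-0.02 and 0.21). *Selplg* was lower in both (-0.32 and -0.19), as was *S1pr1* (-0.16 and -0.28). No test was made on these values.

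The other comparisons set the rescue CLPs against ∆*Firre* and against WT, and share the rescue libraries. They show how the genes stand in rescue CLPs beside each other group. None of the 9 was called between ∆*Firre* and WT, so a return towards WT could not be tested for them. Against ∆*Firre*, 6 of the 9 genes were called, with *Ccr2*, *Cxcr4*, *Cx3cr1* and *Itga4* lower and *Klf2* and *Selplg* higher. Of all genes tested, 27.9% were called in this comparison, 19.3% lower and 8.58% higher in rescue. Against WT, 4 of the 9 were called, with *Ccr2*, *Cxcr4* and *Cx3cr1* lower and *Klf2* higher, where 24.3% of all genes were called (19.4% lower and 4.82% higher). The rescue libraries did not overlap with those of ∆*Firre* in 3 of the 9 genes, beside 21.9% of all genes (6.31% above and 15.6% below), and with those of WT in 4 of the 9, beside 18.0% (3.55% above and 14.5% below). The 9 genes had a median difference of -0.22 from ∆*Firre* and -0.38 from WT, beside -0.16 and -0.21 over all genes tested.

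**Figure D2:**
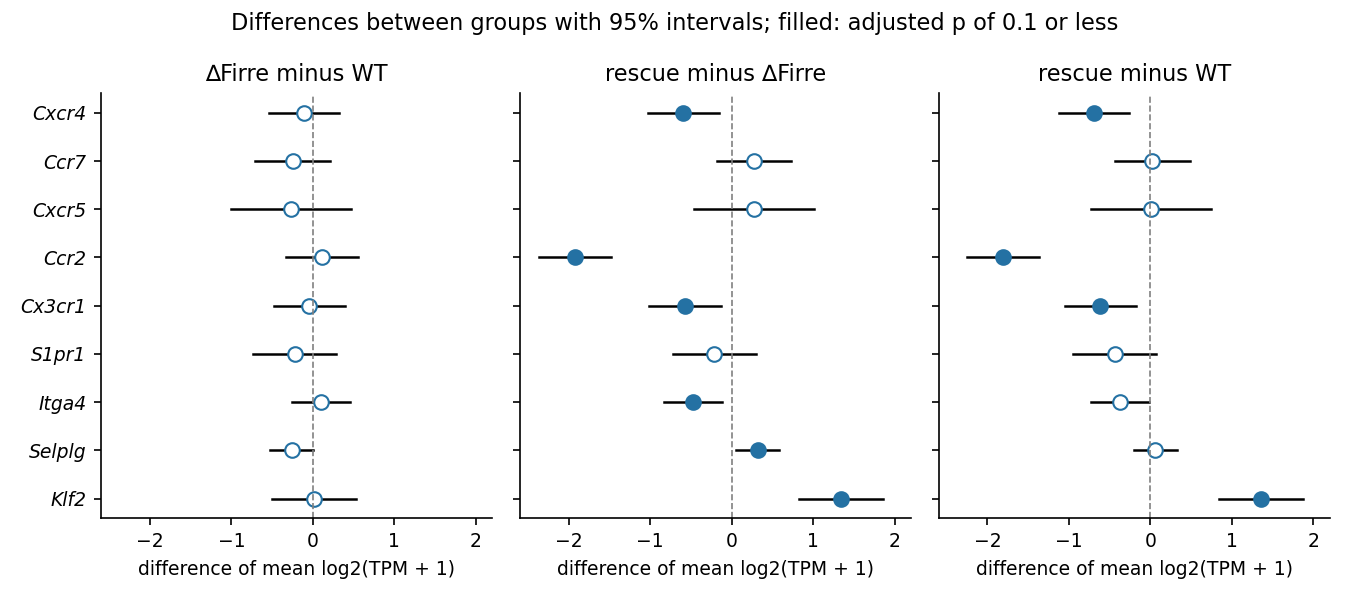
Differences of mean log2(TPM + 1) (x axis) for the 9 genes in the 3 comparisons, with 95% intervals from limma (lines). Filled points have an adjusted p of 0.1 or less. No point is filled for ∆*Firre* minus WT, 6 are filled for rescue minus ∆*Firre* and 4 for rescue minus WT.

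*Ccr2*, the receptor of the monocyte chemoattractant CCL2, had the largest difference. Its level was 102, 45.1, 64.8 and 79.0 TPM in WT libraries 6, 8, 10 and 11. In ∆*Firre* libraries 8, 9, 11 and 12 it was 62.6, 89.0, 76.8 and 75.6 TPM. In rescue libraries 1 to 4 it was 20.8, 21.2, 18.2 and 17.0 TPM. The highest rescue library lay below the lowest of the other 8. The rescue mean was 3.94-fold lower than the ∆*Firre* mean and 3.76-fold lower than the WT mean, and the log2 differences were -1.92 ± 0.20 (SE, limma adjusted p = 0.000135) and -1.80 ± 0.20 (adjusted p = 0.000265). At least 1014 reads stood behind each value. Leaving out any 1 library kept the call in both comparisons, with differences between -2.01 and -1.84 from ∆*Firre* and between -2.01 and -1.62 from WT. The libraries low in *Ccr2* were those low in the basophil and NK cell marker sums given above, and among WT libraries the one with the least *Ccr2*, library 8, had the smallest NK sum (130 TPM) and basophil sum (1052 TPM). Among ∆*Firre* libraries it was otherwise, since library 8, with the least *Ccr2*, had the largest basophil sum (4291 TPM) and an NK sum of 253 TPM, below that of library 9 alone (356 TPM). The summed level of 9 monocyte and macrophage markers overlapped between the groups. It was 195 to 350 TPM in WT, 217 to 383 in ∆*Firre* and 172 to 302 in rescue. Of the 6 tested, 2 were called lower in rescue in each comparison. That count is close to the share over all genes, 27.9% against ∆*Firre* and 24.3% against WT. The part of these cells in the *Ccr2* difference was not tested.

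*Klf2* moved the other way. Its level was 11.4, 5.54, 14.1 and 11.8 TPM in WT libraries 6, 8, 10 and 11 and 10.5, 12.4, 10.9 and 7.83 TPM in ∆*Firre* libraries 8, 9, 11 and 12. It was 31.1, 24.9, 29.0 and 26.1 TPM in rescue libraries 1 to 4, all above the other 8. These values rest on 36 to 152 reads in WT, 81 to 137 in ∆*Firre* and 454 to 566 in rescue. The rescue mean was 2.67-fold that of ∆*Firre* and 2.60-fold that of WT. The log2 differences were 1.35 ± 0.24 (SE, limma adjusted p = 0.00297) and 1.36 ± 0.24 (adjusted p = 0.00328). Without any 1 library they stayed called, between 1.23 and 1.43 from ∆*Firre* and between 1.10 and 1.502 from WT. Immediate early genes, which respond within minutes to signals and to cell handling, were higher in the same libraries. The sum of 12 of them was 237 to 265 TPM in WT, 191 to 316 in ∆*Firre* and 712 to 966 in rescue, and of the 11 tested 8 were called higher and 2 lower in rescue than in ∆*Firre*. *Fos* rose by 3.91 and *Jun* by 3.80 on the log2 scale (limma adjusted p = 0.00438 and 0.0008435). Their part in the *Klf2* difference was not tested.

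*Cxcr4*, the most abundant of the 9, was at 616, 431, 371 and 357 TPM in WT libraries 6, 8, 10 and 11. It was at 603, 338, 391 and 329 TPM in ∆*Firre* libraries 8, 9, 11 and 12 and at 265, 270, 237 and 298 TPM in rescue libraries 1 to 4. In WT and ∆*Firre* 1 library each stood high, and the 4 rescue libraries lay below all others and close together. The rescue mean was 1.55-fold lower than that of ∆*Firre* and 1.66-fold lower than that of WT, with log2 differences of -0.59 ± 0.20 (SE, limma adjusted p = 0.0556) and -0.70 ± 0.20 (adjusted p = 0.0322). WT library 6 and ∆*Firre* library 8, the highest in *Cxcr4*, also had the highest basophil marker sums of their groups (9045 and 4291 TPM). Their neutrophil marker sums were the lowest of their groups but not near 0 (269 and 169 TPM). *S100a8*, 1 of these neutrophil genes, was at 0.909 and 0.296 TPM in them. The difference from ∆*Firre* lost its call without ∆*Firre* library 8 (-0.40, adjusted p = 0.133) and without rescue library 3 (-0.53, adjusted p = 0.104). With both WT library 6 and ∆*Firre* library 8 left out, an alternative chosen after seeing the data, it was called in both comparisons. The part of basophils was not tested.

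**Figure D3:**
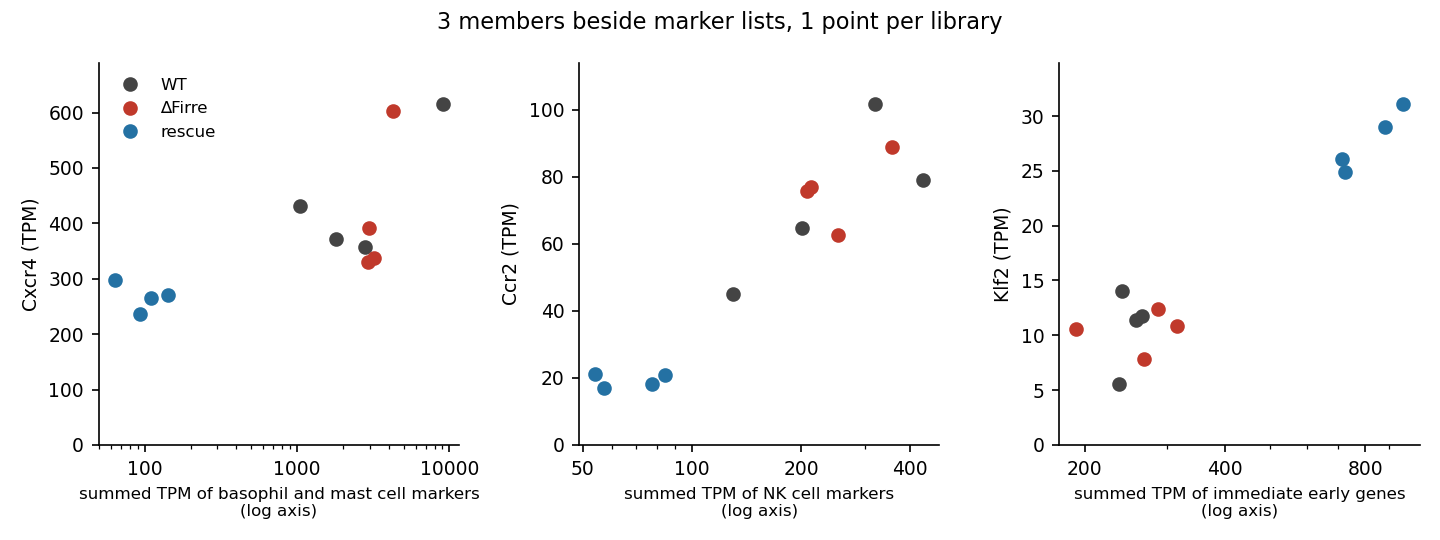
TPM of *Cxcr4*, *Ccr2* and *Klf2* (y axes, from 0) beside the summed TPM of basophil and mast cell markers, NK cell markers and immediate early genes (x axes, log scale), with 1 point for each of 12 libraries. The rescue points stand at 142 TPM or less in the first panel, 84.1 TPM or less in the second and 712 TPM or more in the third, apart from the WT and ∆*Firre* points in each.

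*Cx3cr1*, the fractalkine receptor, was at 20.9, 21.9, 20.2 and 19.0 TPM in WT, 17.4, 21.6, 21.6 and 19.0 in ∆*Firre* and 16.6, 8.58, 11.01 and 18.1 in rescue. The rescue libraries were spread over a 2.11-fold range, more than the 1.15-fold of WT and the 1.24-fold of ∆*Firre*, and rescue library 4 lay above the lowest ∆*Firre* library. The log2 differences were -0.57 ± 0.20 (SE, limma adjusted p = 0.0671) from ∆*Firre* and -0.62 ± 0.20 (adjusted p = 0.0558) from WT. Each call depended on single libraries and on the processing, and both were lost with quantile normalization (0.128 against ∆*Firre* and 0.201 against WT) and with 2 groups in the fit (0.134 and 0.138), the first also with no filter (0.110) and the second also with voom (0.106). Against ∆*Firre* it was lost without ∆*Firre* library 9 (adjusted p = 0.148), 11 (0.143) or 12 (0.111) and without rescue library 2 (0.137) or 3 (0.118). Against WT it was lost without WT library 6 (0.106), 8 (0.109) or 10 (0.103) and without rescue library 2 (0.118). Both were lost without WT library 6 and ∆*Firre* library 8 together (0.112 and 0.135).

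*Itga4* was at 163, 213, 226 and 207 TPM in WT, 174, 207, 247 and 240 in ∆*Firre* and 143, 140, 215 and 132 in rescue. Rescue library 3 stood among the WT and ∆*Firre* libraries while the other 3 rescue libraries lay below all of them. The difference of -0.47 ± 0.16 (SE) from ∆*Firre* was called (limma adjusted p = 0.0619) and that of -0.38 ± 0.16 from WT was not (adjusted p = 0.137, 95% interval -0.73 to -0.02). The call against ∆*Firre* was lost without ∆*Firre* library 9 (adjusted p = 0.103), 11 (0.149) or 12 (0.143), and without rescue library 1 (0.123), 2 (0.123) or 4 (0.152). Without rescue library 3 the differences were -0.63 and -0.53, with adjusted p = 0.00812 and 0.0178, and without WT library 6 that from WT was called too (-0.48, adjusted p = 0.0845).

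*Selplg* was at 189, 157, 226 and 224 TPM in rescue libraries 1 to 4, beside the WT and ∆*Firre* values given above. Rescue library 2 lay within the ∆*Firre* range and the other 3 above it. The difference of 0.32 ± 0.12 (SE) from ∆*Firre* was called (limma adjusted p = 0.0853), while that from WT was 0.06 with a 95% interval of -0.20 to 0.32 (adjusted p = 0.773). The call was lost without ∆*Firre* library 8 (adjusted p = 0.191), 9 (0.196) or 11 (0.115) and without rescue library 1 (0.113), 3 (0.171) or 4 (0.206). It was also lost without the trend in the fit (0.137) and without WT library 6 and ∆*Firre* library 8 together (0.221).

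*Ccr7*, *Cxcr5* and *S1pr1*, the receptors of lymph node homing and egress, were not called in any comparison. *Ccr7* was at 36.6, 84.4, 41.9 and 44.8 TPM in WT, 36.3, 38.9, 43.9 and 46.1 in ∆*Firre* and 52.6, 51.8, 42.0 and 54.5 in rescue, and WT library 8 alone stood high. The rescue minus ∆*Firre* difference was 0.27 with a 95% interval of -0.18 to 0.73. *Cxcr5* was at 4.77, 10.2, 8.53 and 7.78 TPM in WT, 4.43, 7.49, 5.09 and 8.09 in ∆*Firre* and 9.38, 4.07, 5.89 and 14.0 in rescue, where the libraries spread over a 3.44-fold range that held those of both other groups. Its interval, -0.46 to 1.01 from ∆*Firre*, leaves room for a difference of up to 1.01 on the log2 scale. *S1pr1*, one of the genes KLF2 is known to act on in T cells, was at 27.6, 12.2, 15.8 and 15.6 TPM in WT, 12.8, 18.5, 11.6 and 15.7 in ∆*Firre* and 11.1, 14.5, 10.2 and 13.9 in rescue. The rescue libraries, the highest in *Klf2*, overlapped with both other groups in *S1pr1*, and the intervals were -0.73 to 0.30 from ∆*Firre* and -0.95 to 0.07 from WT.

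The differences were not independent of base composition. Over the 11713 tested genes with a transcript sequence, Spearman's rho between transcript GC content and the rescue minus ∆*Firre* difference was 0.497, a description across genes that are not independent replicates. It was -0.419 for ∆*Firre* minus WT and 0.355 for rescue minus WT. *Ccr2*, with a transcript GC content of 39.3%, lay at the 3.52th percentile of these genes, *Itga4* (41.3%) at the 8.43th and *Klf2* (61.6%) at the 98.1th. Among these genes the calls of the members were the same without a correction as over all genes tested. After a correction of each library for GC content, *Ccr2* was still lower in rescue than in ∆*Firre* (-1.45) and WT (-1.38), and *Klf2* still higher (0.89 and 1.19), all called. *Selplg* stayed called against ∆*Firre* (0.23). *Cxcr4* (-0.26, limma adjusted p = 0.418), *Cx3cr1* (-0.32, 0.293) and *Itga4* (-0.05, 0.8747) lost their calls against ∆*Firre*, and *Cxcr4* (-0.37, 0.246) and *Cx3cr1* (-0.36, 0.260) theirs against WT. Rescaling the TPM by median ratios took away the calls of *Cxcr4* (adjusted p = 0.146), *Itga4* (0.107) and *Cx3cr1* (0.113) against ∆*Firre*, and those of *Cxcr4* (0.148) and *Cx3cr1* (0.160) against WT. With no filter on low values, *Cxcr4* (0.115), *Itga4* (0.118) and *Selplg* (0.141) also lost their calls against ∆*Firre*, and with 2 groups in the fit *Itga4* (0.102) and *Selplg* (0.141) did.

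**Figure D4:**
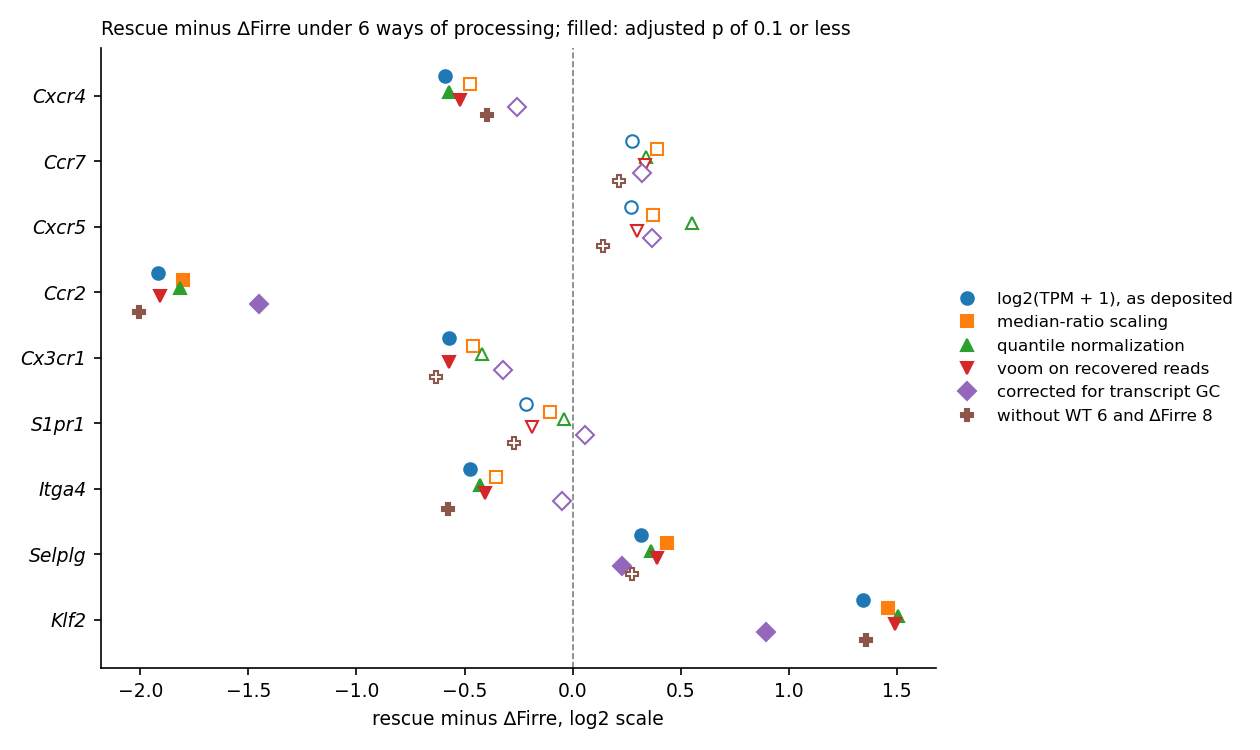
Rescue minus ∆*Firre* difference (x axis, log2 scale) of the 9 genes under 6 ways of processing, named in the legend. Filled symbols have an adjusted p of 0.1 or less. *Ccr2* and *Klf2* are filled in all 6, at -2.01 to -1.45 and 0.89 to 1.504, while *Cxcr4*, *Cx3cr1*, *Itga4* and *Selplg* are open in at least 1.

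The wider pathway was followed in 8 lists of genes. None of their members was called between ∆*Firre* and WT, where 0.0207% of all genes were called. The counts that follow stand beside 27.9% of all genes called between rescue and ∆*Firre* and 24.3% between rescue and WT. Among 12 further chemokine receptors tested, 8 were called lower and 0 higher in rescue than in ∆*Firre*, with a median difference of -1.01 beside -0.16 for all genes, and against WT 4 were lower and 0 higher. Against ∆*Firre* 6 were lower after GC correction, 6 with median ratios and 5 with quantile normalization, with 0 higher in each. With 1 library left out, 5 to 8 were lower against ∆*Firre* and 4 to 6 against WT, with 0 higher. *Ccr1* and *Cxcr2*, receptors of myeloid cells, moved most. *Ccr1* had a mean of 43.5 TPM in WT, 33.1 in ∆*Firre* and 0.0713 in rescue, and fell by 4.95 on the log2 scale from ∆*Firre* (limma adjusted p = 9.61e-05). *Cxcr2* had means of 58.0, 45.4 and 4.28 TPM and fell by 3.36 (adjusted p = 0.000963). Of 9 ligands of the chemokine receptors and of α4 integrins, 3 passed the filter, *Cxcl12*, *Vcam1* and *Fn1*, and only the first, the 1 chemokine among them, was called. *Cxcl12*, the CXCR4 ligand made by stroma, had 0.209 to 73.6 TPM in WT, 3.78 to 62.5 in ∆*Firre* and 0 to 2.57 in rescue (-3.17 from ∆*Firre*, adjusted p = 0.0539, which rose to 0.144 without ∆*Firre* library 8 and to 0.117 without rescue library 4, and which also missed the threshold with a pseudocount of 5, with no filter and with voom).

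Of 23 genes of signalling behind the receptors, 4 were higher and 6 lower in rescue than in ∆*Firre*, and 3 higher and 4 lower than in WT. This split turned with the scaling, to 10 higher and 1 lower against ∆*Firre* with median ratios and 6 higher and 1 lower after GC correction, and against WT to 4 higher and 1 lower and to 5 higher and 1 lower. With 1 library left out it was 3 to 6 higher and 1 to 6 lower against ∆*Firre*. Against WT it was then 1 to 4 higher and 3 to 7 lower. The 7 of 23 called against WT are close to the share over all genes. *Coro1a*, an actin regulator needed for lymphocyte migration, had means of 415, 308 and 615 TPM in WT, ∆*Firre* and rescue (0.98 from ∆*Firre*, limma adjusted p = 0.00344). *Gnb2*, a G protein β subunit, rose by 0.91 from ∆*Firre* (adjusted p = 0.00111), and *Arrb2*, a β-arrestin that ends receptor signals, fell by 0.63 from WT (adjusted p = 0.00843). *Gnai2*, the inhibitory G protein through which chemokine receptors act, had means of 416 TPM ± 27.5 (SD, n = 4), 336 ± 19.7 and 420 ± 54.8 in the same order and was called only against ∆*Firre* (0.31, adjusted p = 0.0382), a call lost after GC correction and without ∆*Firre* library 9 (0.101) or rescue library 4 (0.106).

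Integrins showed the most calls. Of 16 tested besides *Itga4*, 11 were lower and 1 higher in rescue than in ∆*Firre*, with a median difference of -0.90, and 12 were lower and 0 higher than in WT, with a median of -0.97. Against ∆*Firre* 11 were lower with median ratios, 10 with quantile normalization and 10 after GC correction, and against WT 9, 8 and 9. With 1 library left out, 0 or 1 were higher and 11 or 12 lower against ∆*Firre*, and 0 higher and 10 to 12 lower against WT. *Itga2b*, the platelet integrin, had means of 43.0, 27.4 and 1.02 TPM in WT, ∆*Firre* and rescue (-3.87 from ∆*Firre*, limma adjusted p = 9.27e-05), and *Itga2*, a collagen receptor, fell by 2.43 from ∆*Firre* (adjusted p = 0.0133). The partners of α4 were among those lower. *Itgb1* was at 244 TPM ± 25.5 (SD, n = 4) in WT, 246 ± 7.58 in ∆*Firre* and 139 ± 9.19 in rescue, with differences of -0.82 ± 0.08 (SE, adjusted p = 0.000111) and -0.80 ± 0.08 (adjusted p = 0.000159). *Itgb7* was at 118 ± 29.2, 89.0 ± 11.6 and 52.6 ± 10.9 TPM (-0.76, adjusted p = 0.0140, and -1.15, adjusted p = 0.00203). Both β chains stayed called after GC correction, where *Itga4* itself did not. Of 10 genes that switch integrins on, 3 were higher and 4 lower against ∆*Firre*, and 0 higher and 4 lower against WT, and after GC correction 0 were called against ∆*Firre* and 1 higher and 0 lower against WT. With median ratios it was 1 higher and 1 lower against WT. With 1 library left out, 0 to 3 were higher and 3 to 5 lower against ∆*Firre*, and 0 higher and 2 to 5 lower against WT. *Apbb1ip*, the RAP1 effector RIAM, fell by 0.51 and *Fermt3*, which encodes kindlin-3, rose by 0.45 from ∆*Firre* (adjusted p = 0.00586 and 0.0518), the latter not without ∆*Firre* library 8 or 9 or rescue library 4. Vinculin, encoded by *Vcl*, fell by 0.51 from WT (adjusted p = 0.0564), a call lost in 13 of 21 alternatives, among them no filter, median ratios, quantile normalization, a fit of 2 groups, GC correction and leaving out WT library 6 (0.139) or 11 (0.105) or rescue library 1 (0.101), 2 (0.127) or 4 (0.109). *Apbb1ip* and *Fermt3* were not called after GC correction.

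Of 12 genes of selectins and their ligands, 1 was higher and 3 lower against ∆*Firre*, and 1 higher and 6 lower against WT. The first share is close to that over all genes, and against WT 1 was higher and 2 lower after GC correction. With 1 library left out, 0 to 2 were higher and 3 lower against ∆*Firre*, and 0 or 1 higher and 4 to 7 lower against WT. Of the enzymes that decorate PSGL-1, *Gcnt1* fell by 0.68 from ∆*Firre* and 0.66 from WT (limma adjusted p = 0.0123 and 0.0147), *Fut7* fell by 0.65 from WT (adjusted p = 0.00529) and *Tpst2* rose by 0.41 from ∆*Firre* (adjusted p = 0.0549), a call lost without ∆*Firre* library 8 or 11 or rescue library 4. Neither *Gcnt1* nor *Tpst2* was called after GC correction.

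Of 9 genes of lipid receptors and S1P handling, 1 was higher and 3 lower against ∆*Firre*, and 0 higher and 3 lower against WT. Against ∆*Firre* this became 1 higher and 2 lower, and against WT 1 higher and 1 lower, with median ratios and with quantile normalization. After GC correction it was 1 higher and 1 lower and 0 higher and 1 lower. With 1 library left out, 1 was higher and 2 or 3 lower against ∆*Firre*, and 0 or 1 higher and 2 to 5 lower against WT. *Gpr183*, the oxysterol receptor EBI2, had means of 21.5, 19.1 and 3.41 TPM in WT, ∆*Firre* and rescue (-2.18 from ∆*Firre*, limma adjusted p = 0.00135), *Sphk2*, a sphingosine kinase, rose by 0.83 from ∆*Firre* (adjusted p = 0.0178) and *Sgpp1*, an S1P phosphatase, fell by 0.51 from WT (adjusted p = 0.0479), a call lost in 7 of 21 alternatives, among them median ratios, quantile normalization, a fit of 2 groups, voom, GC correction and leaving out rescue library 2. *S1pr4* (34.8 TPM ± 8.43 in WT, 34.0 ± 9.06 in ∆*Firre* and 42.1 ± 8.77 in rescue, SD, n = 4) and *Cd69*, whose product draws S1PR1 from the cell surface (32.7 ± 5.98, 33.5 ± 5.07 and 29.2 ± 2.18), were not called. Of 16 KLF and FOXO family members and genes upstream of KLF2, 3 were higher and 6 lower against ∆*Firre*, and 2 higher and 8 lower against WT. The split was 5 and 6 against ∆*Firre* and 3 and 4 against WT with median ratios, 4 and 5 and 3 and 3 with quantile normalization, and 2 and 5 and 2 and 4 after GC correction. With 1 library left out, 2 to 4 were higher and 5 to 7 lower against ∆*Firre*, and 0 to 2 higher and 5 to 8 lower against WT. *Klf4*, a close relative of *Klf2*, had means of 5.24, 4.19 and 12.7 TPM (1.38 from ∆*Firre*, adjusted p = 0.0367), a call lost without ∆*Firre* library 12. *Klf7* fell by 1.34 from ∆*Firre* and 1.36 from WT (adjusted p = 0.000923 and 0.00102), and *Klf11* fell by 1.22 from WT (adjusted p = 0.0350), a call lost with quantile normalization, with a fit of 2 groups and without WT library 6 and ∆*Firre* library 8 together.

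**Figure D5:**
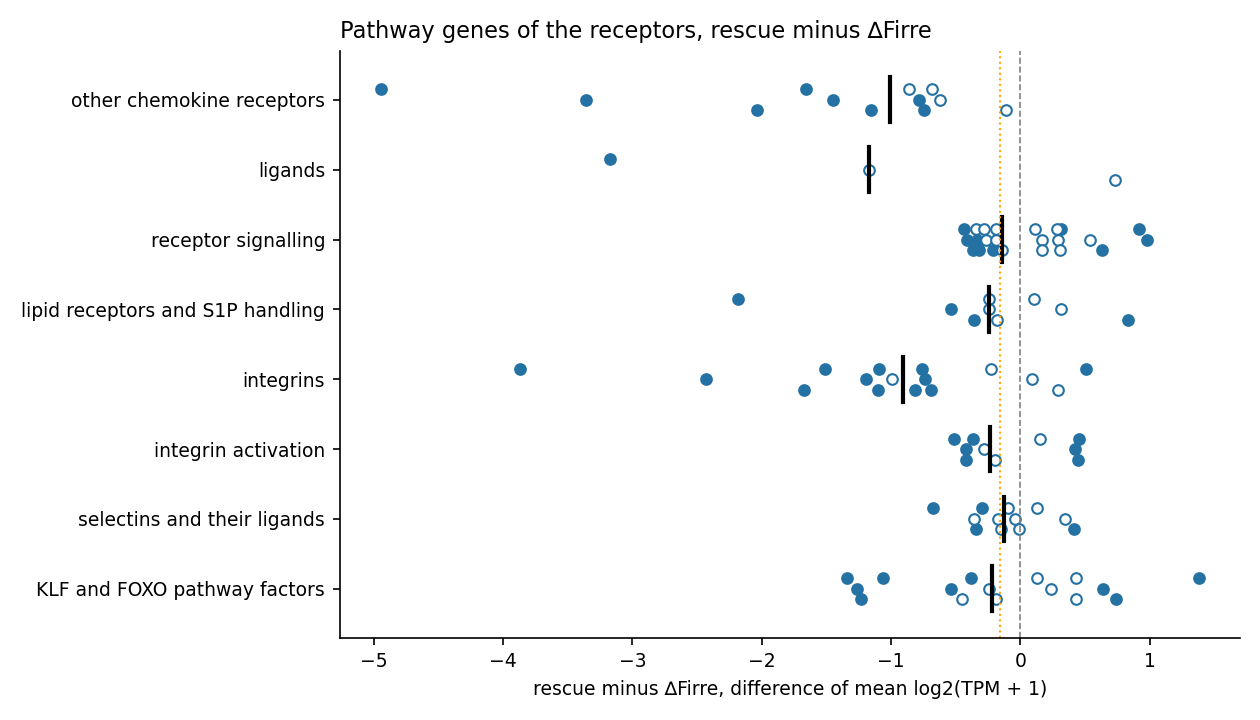
Rescue minus ∆*Firre* difference of mean log2(TPM + 1) (x axis) of each gene tested in the 8 pathway lists, with the median of the list (black line), 0 (dashed) and the median of all genes tested (dotted, -0.16). Filled points have an adjusted p of 0.1 or less. The chemokine receptors and integrins sit mostly to the left, with medians of -1.01 and -0.90.

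Likeness of pattern was measured by Pearson's r of log2(TPM + 1) over the 12 libraries among the genes tested, given with no test since libraries share group, depth and preparation. The 2 genes most like each member were *Cdh1* (r = 0.983) and *Anxa2* (0.981) for *Ccr2*, *Dlg2* (0.953) and *Cdca8* (0.949) for *Klf2*, *Alox5ap* (0.924) and *Dnase2b* (0.922) for *Cxcr4*, and *Arih2* (0.959) and *Csf3r* (0.944) for *Cx3cr1*. For *Itga4* they were *Rpgrip1* (0.960) and *Msl1* (0.954), and for *Selplg* they were *Lypla2* (0.962) and *Trpc4ap* (0.954). *Msra* (0.903) and *Maf1* (0.870) were the most like *Ccr7*, *Hoxa6* (0.880) and *Mrps7* (0.856) the most like *Cxcr5*, and *Atp1b1* (0.847) and *Tmsb4x* (0.831) the most like *S1pr1*. Once group means were taken off, these r ranged from 0.767 for *Dlg2* with *Klf2* to 0.965 for *Lypla2* with *Selplg*. Among the members themselves, *Ccr2* and *Klf2* had r = -0.784 over all libraries and 0.606 within groups, so their opposite course lay between the groups and not within them.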

How the data were processed

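Poly(A)+ libraries (CATS RNA-seq kit v2) of sorted CLPs from 4 mice in each of 3 groups were sequenced. The authors trimmed reads with cutadapt, mapped them with TopHat2 2.1.1 to mm10, counted reads per gene with featureCounts and deposited TPM per library. Strand and multi-mapping settings are not given in the sources used here. The deposited values are TPM and not counts, and DESeq2 was not run here. Every deposited TPM value above 0 was a whole number of reads once the step of 1 read was found, within a tolerance of 0.02 of a read or, at high values, of at most 0.1, and these recovered reads gave depth and the voom alternative.

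Genes with a mean of at least 1 TPM (14479 of 47643) were tested on log2(TPM + 1) with limma 3.58.1 (trend, 3 groups in 1 fit) in R 4.3.3, with Benjamini-Hochberg adjustment over all of them and a threshold of 0.1. Differences are on the log2(TPM + 1) scale, which understates changes of low genes. Tables were made in Python 3.11.15 with pandas 2.3.3. The script was tested on simulated data. *Firre* is listed as 6720401G13Rik. The 9 members and all gene lists were chosen with earlier results of these data known. In the lists, 7 genes were matched by an older symbol and 3 were not matched. Named were all members, the 2 called genes of each pathway list with the largest difference in each rescue comparison and fixed partner genes of the members, of which 1 is not reported here. Alternatives were other pseudocounts, filters, scalings, designs, a GC correction (11713 genes, 80.9% of those tested), voom, a block and each library left out.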

Additional observations from a re-analysis of the deposited data

Results flagged for a closer look

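*Itga4* in rescue library 3, at 7.76 on the log2(TPM + 1) scale (215 TPM), lay far from the other 3 rescue libraries, which were between 7.06 and 7.17. Its gap from the nearest rescue library was 0.83 of the range of the 4. By this measure it was the 1 value that stood apart among 27 sets of 4 libraries (9 genes in 3 groups), where chance alone gives about 1 set in 20, or 1.35 of 27. The libraries described above as standing high in *Ccr7* and *Cxcr4* did not stand apart by this measure. The cause was not tested.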

How the results depend on the processing

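*Ccr2* and *Klf2* kept their direction and their calls in both rescue comparisons under every alternative but the empirical null, an alternative chosen after seeing the data, as was leaving out WT library 6 with ∆*Firre* library 8. Under the empirical null 0 genes were called in either rescue comparison by limma (629 and 1020 at an unadjusted p under 0.05), with adjusted p of 0.864 and 0.690 for *Ccr2*. For ∆*Firre* against WT, 3 genes were called, against 6 with no filter, 1 with 2 groups in the fit, 0 with voom, 0 over the 11713 genes with a GC value both before and after GC correction, 6 without WT library 6 and ∆*Firre* library 8, and 1 to 5 with 1 library left out. For rescue against ∆*Firre*, 4043 genes were called, against 2682 at an adjusted p of 0.05, 2461 after GC correction (3753 over the same genes before it) and 2809 to 4401 with 1 library left out. For rescue against WT, 3512 were called, against 2263 with 2 groups in the fit, 1989 after GC correction (3339 before it) and 2642 to 4319 with 1 library left out. The members called against ∆*Firre*, 6 as reported, were 2 with no filter, 3 with median ratios, 3 with 2 groups in the fit, 2 at an adjusted p of 0.05, 3 after GC correction, 0 under the empirical null and 3 to 4 with 1 library left out. Against WT the 4 became 2 with median ratios, 2 after GC correction, 0 under the empirical null and 3 to 5 with 1 library left out. Scaling moved the share of higher calls: against ∆*Firre* 1242 were higher and 2801 lower (30.7% higher), against 1889 and 1875 with median ratios (50.2%), 2001 and 1732 with quantiles (53.6%) and 1674 and 787 after GC correction (68.0%, and 33.6% over the same genes before it), and against WT 698 and 2814 (19.9%) became 1288 and 1256 (50.6%), 1208 and 1210 with quantiles and 1295 and 694 (65.1%, and 20.9% before it). Signs turned in these differences, none of them called as reported. For ∆*Firre* against WT, *Cx3cr1* turned to 0.0239 with median ratios, 0.0372 with quantiles, 0.0182 with voom and 0.0258 without WT library 6 and ∆*Firre* library 8, where *S1pr1* turned to 0.0552, and *Klf2* turned to -0.0014 with a pseudocount of 5 and -0.0125 with voom. With 1 library left out, the range was -0.30 to 0.0641 for *Cxcr4*, -0.39 to 0.00599 for *Ccr7*, -0.0921 to 0.29 for *Ccr2*, -0.0829 to 0.0162 for *Cx3cr1*, -0.37 to 0.00107 for *S1pr1*, -0.00247 to 0.20 for *Itga4* and -0.24 to 0.16 for *Klf2*. Against ∆*Firre*, GC correction gave 0.058 for *S1pr1*, 0.25 for *Cd69* and -0.23 for *S1pr4*. Against WT it gave 0.0174 for *Itga4* and 0.25 for *Cd69*. Against WT, *Cd69* was at 0.0398 with median ratios and 0.0448 with quantiles, *Cxcr5* at -0.0069 with a pseudocount of 0.1, and without WT library 6 and ∆*Firre* library 8 *Ccr7* was at -0.11 and *Cxcr5* at -0.19. The ranges with 1 library left out were -0.11 to 0.28 for *Ccr7*, -0.27 to 0.26 for *Cxcr5*, -0.00644 to 0.17 for *Selplg* and -0.0545 to 0.0845 for *Gnai2*. With the replicate block for the 2 numbers that WT and ∆*Firre* share, 3 genes and 0 members were called and no call of a member changed. The deviations of samples that share a number correlated at -0.0328 and -0.0411, beside 0.0184 and -0.052 for those with different numbers. These values show no shared deviation, and whether mice of the same number were handled together was not tested. The causes of these changes were not tested. The fewest reads were 36 to 152 for *Klf2* in WT, 61 to 128 for *Cxcr5* in ∆*Firre* and 64 to 141 for *Cxcr5* in WT.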
